A study of Zea mays with 6 samples.

Results

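Loci longer than 500 bases that were close to silent in wild-type maize kernels, yet plainly transcribed in every library of the mutant dek42, were examined one by one. They were chosen by their values: under 1 FPKM (sequenced fragments counted per unit of transcript length and of library size) in both wild-type libraries and at least 5 FPKM in all 3 dek42 libraries. They also had to lie on chromosomes 1 to 10, span at most 30000 bases and overlap no other row. Chromosome 6 from 12 to 15 megabases was left out, as were chains of at least 3 equal-span loci with starts less than 200 kilobases apart. Of 45736 loci in all, 34249 met the conditions of position and span, and 18 met the whole rule. The rule used all 5 libraries and both genotypes, so the difference between genotypes at these 18 loci is described below and not tested.

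RNA came from pooled whole kernels of Zea mays at 15 days after pollination. Wild-type replicates 1 and 3 (n = 2) stand for kernels labelled wild-type, and dek42 replicates 1, 2 and 3 (n = 3) for kernels of the dek42 mutant, titled dek42-ref. Both groups share tissue and age. The labels give 3 replicates of each genotype, of which replicate 2 of the wild type was not used. The labels do not name the inbred background, the lesion in dek42-ref or how many kernels or ears made a pool, and nothing says that replicates came from separate plants.

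The Dek42 protein binds RNA and takes part in splicing, the step that removes introns before a transcript leaves the nucleus. Kernels of defective kernel (dek) mutants develop poorly, with effects on embryo and endosperm. A whole kernel holds the starch-filling endosperm, the embryo and the maternal seed coat. In such bulk samples more cells of one type and more RNA per cell cannot be told apart, and a low FPKM can be a faint signal from all cells or a strong one from few. Rows of the files carry positions in B73 RefGen_v4 and no gene names, so each locus is given by chromosome, start and end. Genes, exons, introns, cell type markers and the Dek42 locus itself were not analysed here.

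Facts of the whole series bear on every value. Summed FPKM over all loci lay between 1121968 and 1474743 per library, and read totals, hence depth, are unknown. Of 20327 loci tested, 39.2% were called higher in dek42 on the deposited scale and 2.29% lower (limma, Benjamini-Hochberg adjusted p under 0.05), and the median locus was 0.54 higher on the log2(FPKM + 1) scale. Median-ratio scaling sets to 1 the median ratio of a library to the geometric means of the loci. After it 20067 loci passed the filter, of which 8.07% were called higher and 8.24% lower, and the median was 0.01. The factors by which libraries were divided were 0.786 and 0.760 in wild type and 1.12, 1.26 and 1.22 in dek42, so the scaling raises wild-type values and lowers dek42 values.

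The 18 loci are the tail of a graded distribution. Of the 34249 loci meeting the conditions of position and span, 18444 were under 1 FPKM in both wild-type libraries, and 15846 of those were under 1 FPKM in dek42 as well. Among the 18444, 878 had at least 1 FPKM in every dek42 library, 214 had at least 2, 109 had at least 2.5, 18 had at least 5 and 8 had at least 10. The 18 loci are thus 0.0976% of the loci near-silent in wild type. They are 0.174% of the 10357 loci with at least 5 FPKM in every dek42 library.

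**Figure D1:**
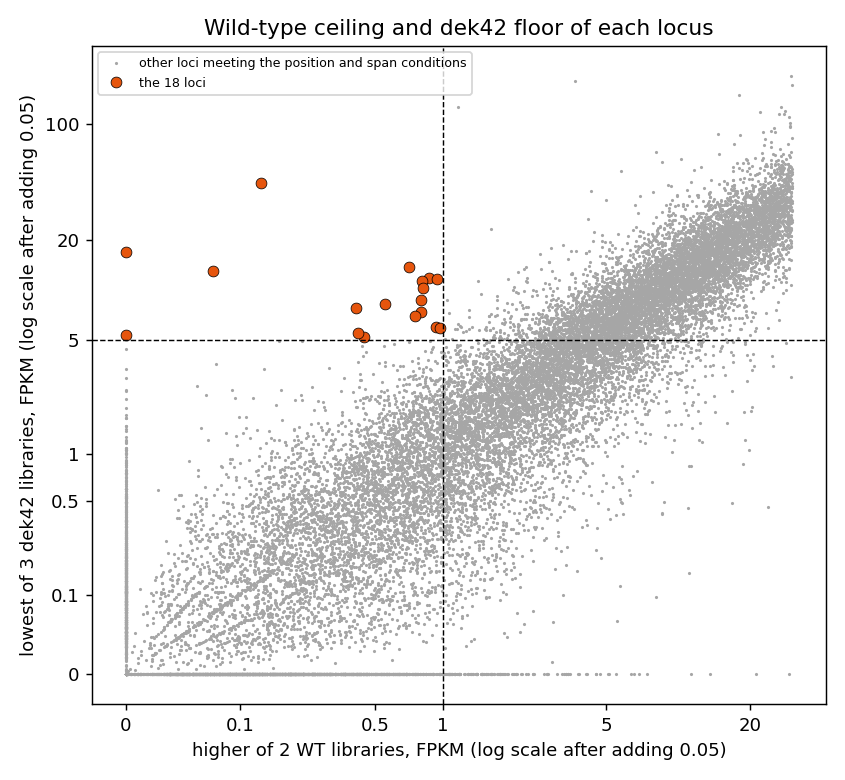
Each grey point is a locus meeting the conditions of position and span, by the higher of its 2 wild-type values (horizontal) and the lowest of its 3 dek42 values (vertical), both in FPKM on a log scale after adding 0.05, with axes cut at 30 and 200 FPKM. The 18 loci (orange) fill the upper left corner bounded by the limits of 1 and 5 FPKM (dashed), and 11 of them have a wild-type maximum of 0.5 FPKM or more.

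Taken as a group, the loci were low in wild type and, in dek42, mostly at the lower end of the 10357 loci. Their mean dek42 level ran from 6.04 to 102 FPKM with a median of 10.9, against a median of 19.96 and a lower quartile of 10.98 over the 10357. In wild-type replicate 1 they ran from 0 to 0.671 FPKM with a median of 0.326, and in replicate 3 from 0 to 0.974 with a median of 0.731. The ratio of mean FPKM between dek42 and wild type ran from 8.35 to 1519 with a median of 21.3. It exists for the 16 loci above 0 in at least 1 wild-type library, of which 12 were above 0 in both. At the rest of the 16, replicate 1 was listed at 0, which can be a failed estimate and lowers the wild-type mean. On the log2(FPKM + 1) scale the change ran from 2.05 to 6.42 with a median of 3.06, beside 0.54 over all loci tested. All 18 were among the loci called higher, beside the 39.2% of all tested loci named above. Nothing is read from that count, since the rule chose the loci by the same contrast and they passed the filter on low values through dek42 alone.

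Summed over the 18 loci, wild-type replicates 1 and 3 held 5.40 and 10.4 FPKM, against 352, 476 and 224 FPKM in dek42 replicates 1, 2 and 3. These sums are 0.0241%, 0.0323% and 0.0179% of all FPKM in the dek42 libraries, a very small part of the kernel's RNA. A pair of loci on chromosome 1 held 51.9%, 59.4% and 27.1% of the dek42 sums. Without that pair the sums were 170, 194 and 163 FPKM, close together, against 5.40 and 10.3 in wild type. The pair was picked from these same values and varied widely among the dek42 libraries, so closer sums follow in part from leaving it out. Among the loci that remain, that on chromosome 8 from 103471795 still had a 4.78-fold range.

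**Figure D2:**
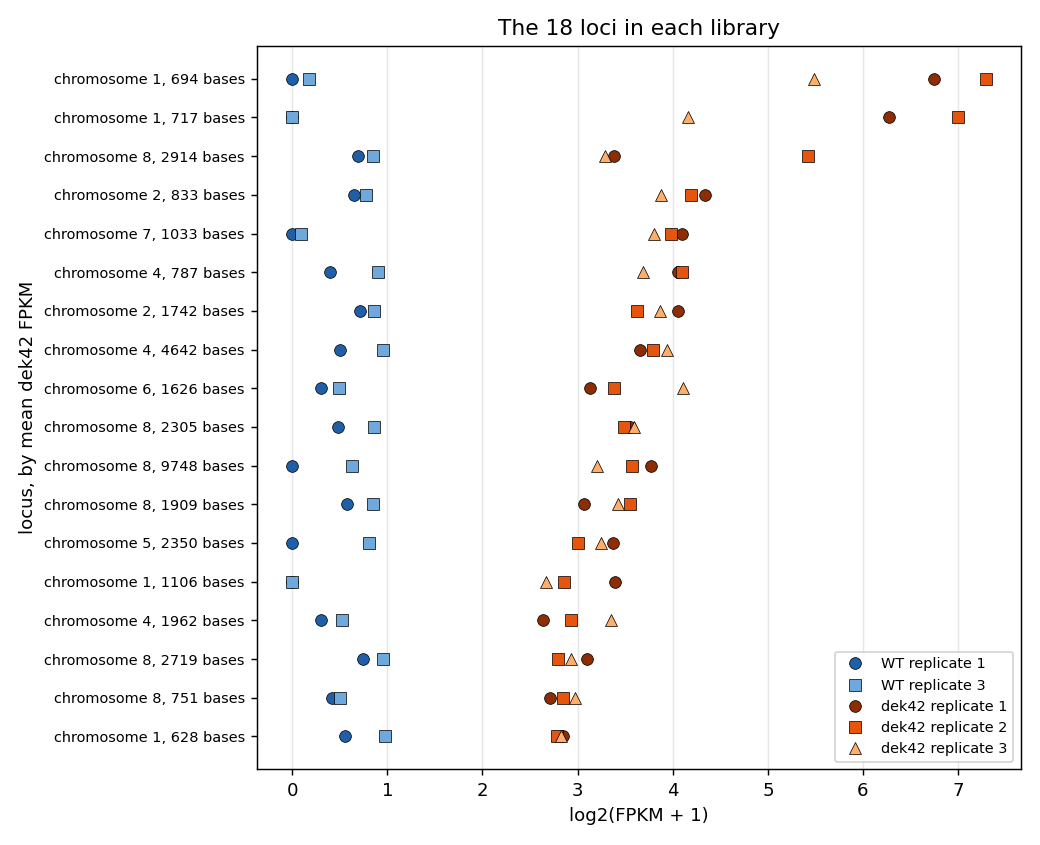
FPKM of each of the 18 loci in each library on the log2(FPKM + 1) scale (horizontal), ordered by mean dek42 level and named by chromosome and span. Wild-type libraries (blue) stay below 1 on this scale at every locus by the rule, and the highest values, 156 and 127 FPKM, belong to dek42 replicate 2 at a pair of loci on chromosome 1.

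The pair on chromosome 1 had the highest dek42 levels and the widest spread. The locus from 288458501 to 288459194 (694 bases) was listed at 0 and 0.134 FPKM in wild-type replicates 1 and 3. In dek42 replicates 1, 2 and 3 it had 106, 156 and 43.8 FPKM (mean 102 ± 56.1, SD, n = 3). Its wild-type trace is faint: the 5th percentile of values above 0 in wild-type replicate 3, over loci whose span is within 10%, was 0.118 FPKM. The ratio of means, 1519, therefore rests on a wild-type value near the lowest that such loci show, and its size is poorly fixed.

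The locus from 237572812 to 237573528 (717 bases), 50.9 megabases away on the same chromosome, was listed at 0 in both wild-type libraries. It had 76.4, 127 and 16.9 FPKM in dek42 replicates 1, 2 and 3 (mean 73.5 ± 55.2, SD, n = 3). No fold is given, because an exact 0 in such files can be a failed estimate. At both loci replicate 2 was highest and replicate 3 lowest, yet every dek42 value was far above the wild-type libraries. The 7.53-fold range of this locus among the dek42 libraries was the widest of all 10357 loci with at least 5 FPKM in each of them. The 3.56-fold range of its companion ranked 16.

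Another locus varied widely, through 1 library. On chromosome 8 from 103471795 to 103474708 (2914 bases), wild-type replicates 1 and 3 had 0.612 and 0.804 FPKM. The dek42 replicates had 9.44, 41.9 and 8.76 FPKM. Replicate 2 was more than 4 times the others, which lay close together. These 3 loci were the only ones of the 18 with a range over 3-fold among dek42 libraries, a range reached by 39 of the 10357 loci (0.377%).

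The other 15 loci had mean dek42 levels under 20 FPKM and more even replicates. Over all 18 loci the highest dek42 library exceeded the lowest by a median of 1.39-fold, beside 1.24-fold over the 10357 loci. The 10357 have higher dek42 levels than the 18, and no set matched on level was compared for spread. The range was under 1.5-fold at 11 of the 18, against 84.5% of the 10357. It was narrowest, 1.05-fold, on chromosome 1 from 227650950 to 227651577. Dek42 replicate 1 was the highest of the 3 at 8 loci, replicate 2 at 5 and replicate 3 at 5, whereas over the 10357 loci replicate 1 was highest at 19.4%, replicate 2 at 45.6% and replicate 3 at 34.9%. After median-ratio scaling replicate 1 was highest at 10 of the 18. The share over the 10357 loci was not computed on that scale, which divides replicate 1 by the smallest dek42 factor. The count of 10 therefore has no background beside it, and nothing is read from it.

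**Figure D3:**
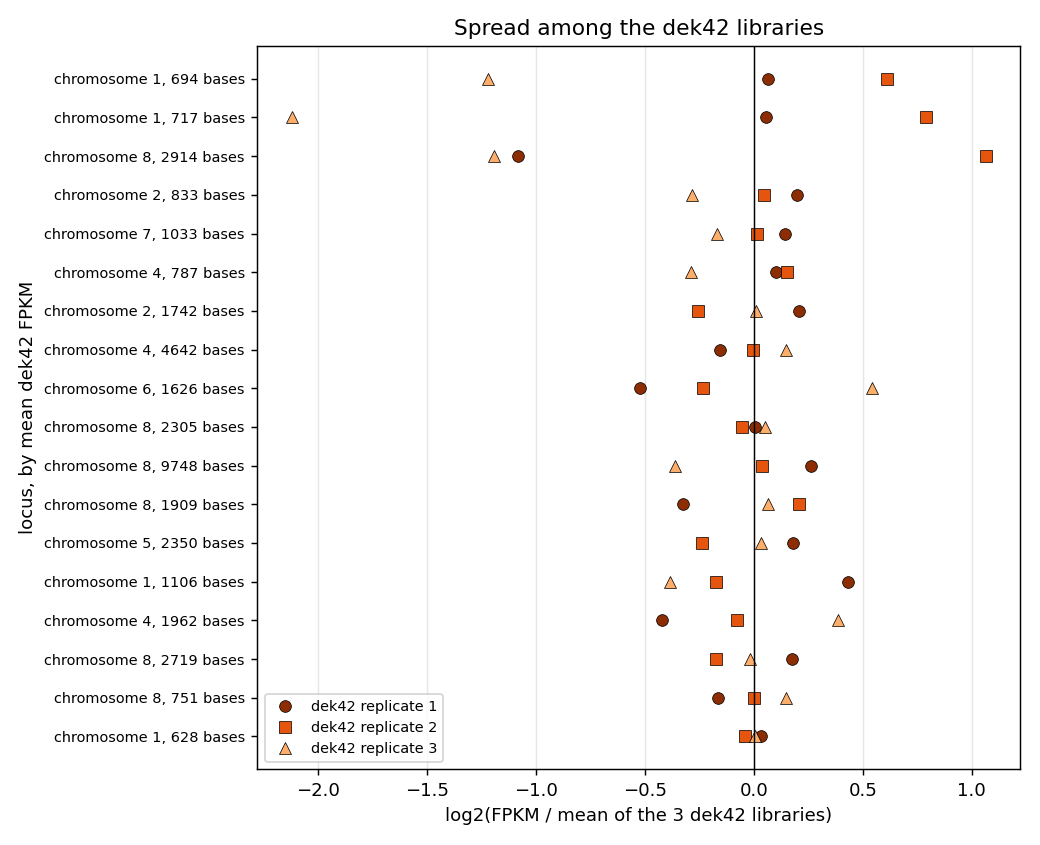
FPKM of each locus in each dek42 library as a log2 ratio to the mean of the 3 dek42 libraries (horizontal), in the same order of loci. The top 3 loci spread most, with ranges of 3.56-fold, 7.53-fold and 4.78-fold, and replicate 2 is the highest library at each.

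Among these even loci, a pair stood on chromosome 2. The locus from 114548320 to 114549152 (833 bases) had 0.573 and 0.708 FPKM in wild type and 19.2, 17.3 and 13.7 FPKM in dek42 replicates 1, 2 and 3. The locus from 106628659 to 106630400 (1742 bases) had 0.642 and 0.812 FPKM in wild type and 15.6, 11.3 and 13.6 FPKM in dek42. Both had traces in both wild-type libraries and a dek42 mean 26.1 and 18.6 times the wild-type mean.

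The locus on chromosome 7 from 170115655 to 170116687 (1033 bases) was the closest to silent of the even loci that were above 0 in wild type. It was listed at 0 in wild-type replicate 1 and had 0.0653 FPKM in replicate 3, next to a 5th percentile of 0.0644 FPKM for loci of like span. It had 16.1, 14.8 and 13.0 FPKM in dek42 (mean 14.6 ± 1.57, SD, n = 3). Its ratio of means was 448, which again rests on a trace near the lowest values seen.

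On chromosome 4, 3 loci met the rule. The locus from 246942996 to 246943782 (787 bases) had 0.314 and 0.867 FPKM in wild type and 15.6, 16.1 and 11.9 FPKM in dek42. The locus from 11098503 to 11103144 (4642 bases) had 0.415 and 0.943 FPKM in wild type and 11.6, 12.9 and 14.3 FPKM in dek42. In both, wild-type replicate 3 was more than 2 times replicate 1 and close to the limit of 1 FPKM. The locus from 59298544 to 59300505 (1962 bases) had 0.237 and 0.443 FPKM in wild type and 5.23, 6.65 and 9.18 FPKM in dek42, the lowest single dek42 value of the 18.

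Chromosome 8 held 6 of the 18 loci (33.3%). It has 9.06% of the 34249 loci meeting the conditions of position and span and 9.47% of the 10357. The share of its tested loci called higher was 37.2%, below the 39.2% over all chromosomes and contigs. Chromosome 8 was singled out after these counts were seen. Of the 7 loci that still met the rule after median-ratio scaling, only that from 120787727 was on chromosome 8. Besides the uneven locus given above, the locus from 20660018 to 20662322 (2305 bases) had 0.393 and 0.820 FPKM in wild type and 10.7, 10.2 and 11.03 FPKM in dek42. The locus from 181042884 to 181044792 (1909 bases) had 0.496 and 0.803 FPKM in wild type and 7.41, 10.7 and 9.72 FPKM in dek42. The former was among the most even of the 18.

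Further on this chromosome, the locus from 103881481 to 103882231 (751 bases) had 0.339 and 0.414 FPKM in wild type and 5.52, 6.19 and 6.86 FPKM in dek42. The locus from 107054057 to 107056775 (2719 bases) had 0.671 and 0.939 FPKM in wild type and 7.58, 5.95 and 6.63 FPKM in dek42, and the smallest ratio of means, 8.35. With the uneven locus these make 3 members within 4 megabases. Between the uneven locus and the first of this pair lie 406772 bases with 6 loci, all tested, of which 2 were called higher and none lower. Within the pair 33 loci were tested, of which 10 were called higher and none lower. After median-ratio scaling 1 of the 6 and 1 of the 33 were called higher, and none and 2 lower.

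The longest of the 18 was on chromosome 8 from 120787727 to 120797474 (9748 bases). It was listed at 0 in wild-type replicate 1 and at 0.552 FPKM in replicate 3. It had 12.7, 10.9 and 8.24 FPKM in dek42 (mean 10.6 ± 2.25, SD, n = 3). A similar gap between the wild-type libraries was seen on chromosome 5 from 221970821 to 221973170 (2350 bases), with 0 and 0.753 FPKM in wild type and 9.38, 7.02 and 8.48 FPKM in dek42. In both the wild-type trace came from replicate 3 alone.

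The remaining loci were on chromosomes 6 and 1. On chromosome 6 from 129101872 to 129103497 (1626 bases), well away from the excluded block, wild-type libraries had 0.236 and 0.406 FPKM and dek42 libraries 7.76, 9.45 and 16.2 FPKM. Here replicate 3 was the highest, unlike at the pair on chromosome 1. On chromosome 1 from 83058554 to 83059659 (1106 bases) both wild-type libraries were listed at 0, and dek42 had 9.48, 6.22 and 5.38 FPKM. On chromosome 1 from 227650950 to 227651577 (628 bases), the shortest of the 18, wild type had 0.466 and 0.974 FPKM and dek42 had 6.18, 5.88 and 6.07 FPKM. That locus sits nearest to the wild-type limit.

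The rule held both wild-type libraries under 1 FPKM but did not set their order. Replicate 3 was higher than replicate 1 at all 16 loci above 0 in either, and both were at 0 at the other 2. Over the 7145 loci that also lay under 1 FPKM in both wild-type libraries and above 0 in either, replicate 3 was higher at 60.3%. Over the 848 of them with at least 1 FPKM in every dek42 library it was higher at 62.5%. Neither set was matched to the 18 on wild-type or dek42 level. All these loci share the same pair of wild-type libraries, so they are not replicates of the order. Median-ratio scaling left the count of 16 as it was. Replicate 1 was listed at 0 at 6 of the 18 loci and replicate 3 at 2. Exact zeros also occurred where every other library was high, which is not the case at the 18. Over all loci, 12 in wild-type replicate 1 and 3 in replicate 3 were listed at 0 while the other 4 libraries had 10 FPKM or more. For dek42 replicates 1, 2 and 3 such loci numbered 2, 1 and 1.

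Loci under 1000 bases made up 6 of the 18, or 33.3%, beside 25.1% of the 18444 loci near-silent in wild type and 4.93% of the 10357 loci with at least 5 FPKM in every dek42 library. The median span was 1684 bases, against 1718 and 4365 bases in those sets. The latter set has higher dek42 levels than the 18, and no set matched on level was compared. No sequence or gene annotation of this build was used, so what the loci encode is not described. Chromosomes 3, 9 and 10 held none of the 18, and chromosomes 1, 2, 4, 5, 6, 7 and 8 held 4, 2, 3, 1, 1, 1 and 6.

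The position of the limits decided which loci were included. Just inside the wild-type limit of 1 FPKM were the loci on chromosome 1 from 227650950, on chromosome 4 from 11098503 and on chromosome 8 from 107054057, with wild-type maxima of 0.974, 0.943 and 0.939 FPKM. Just outside it were loci of chromosome 8 (164358885 to 164361386), chromosome 1 (232178531 to 232179278) and chromosome 5 (188679378 to 188680432), with maxima of 1.03, 1.04 and 1.06 FPKM. The second of these had 13.6, 21.2 and 8.74 FPKM in dek42, a mean of 14.5, above the median of 10.9 among the 18.

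Just inside the dek42 limit of 5 FPKM were the loci on chromosome 4 from 59298544, on chromosome 1 from 83058554 and on chromosome 8 from 103881481, with dek42 minima of 5.23, 5.38 and 5.52 FPKM. Just outside were loci of chromosome 7 (34632587 to 34634215), chromosome 10 (66118491 to 66119148) and chromosome 3 (207545557 to 207548378). Their minima were 4.96, 4.93 and 4.93 FPKM. The first of them had 0.168 and 0.0782 FPKM in wild type and 5.66, 4.96 and 12.04 FPKM in dek42 (mean 7.56).

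A further 3 loci met the limits of value and were left out for overlapping another row, 1 of which also lay in the excluded block of chromosome 6. This last, from 13586828 to 13587951, was at practically 0 in wild type and had 154, 23.4 and 19.1 FPKM in dek42. The others were on chromosome 4 from 44222585 to 44228786, with 6.63, 15.9 and 8.37 FPKM in dek42, and on chromosome 10 from 149091260 to 149092049, with 18.3, 16.9 and 8.62 FPKM. The sources used here do not give how reads were divided between overlapping rows.

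Scaling also decided membership. After median-ratio scaling 7 of the 18 still met the rule and no further locus did. Of the 11 that did not, 8 had a scaled wild-type value of 1 FPKM or more and 5 a scaled dek42 value under 5 FPKM, with 2 failing on both sides. The 7 were the pair on chromosome 1 with the highest levels and the loci on chromosome 2 from 114548320, chromosome 5 from 221970821, chromosome 6 from 129101872, chromosome 7 from 170115655 and chromosome 8 from 120787727. On that scale the log2 change of the 18 ran from 1.66 to 6.13 with a median of 2.71, beside a median of 0.01 over all loci tested. All 18 were among the loci called higher, beside the 8.07% given above.

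Few loci went the other way. With the genotypes exchanged, so that all dek42 libraries were under 1 FPKM and both wild-type libraries at 5 FPKM or more, 3 loci met the same conditions, named here after their values were seen. On chromosome 9, the locus from 124760890 to 124766137 had 11.2 and 8.65 FPKM in wild type and 0.183, 0.151 and 0.198 FPKM in dek42. The other two, on chromosome 1 (232015863 to 232017318) and chromosome 10 (104219160 to 104224390), had wild-type means of 9.72 and 5.56 FPKM and dek42 means of 0.758 and 0.685 FPKM. The exchange is not symmetric, since 3 libraries must now be low and 2 high. After median-ratio scaling 7 loci met the rule in each direction, so the excess of 18 over 3 is found on the deposited scale and not on the scaled one.

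Neighbouring loci were not used by the rule and could be tested. The nearest tested locus on each side that does not overlap was taken, 34 in all, since 2 of the 18 had a tested neighbour on 1 side only. They lay 1.07 to 497 kilobases away, with a median of 52.5. On the deposited scale 16 of the 34 (47.1%) were called higher and none lower (limma adjusted p under 0.05), beside 39.2% higher over all loci tested, and their median log2 change was 0.56, beside 0.54. After median-ratio scaling 3 (8.82%) were called higher and 3 lower, beside 8.07% and 8.24%. Within 500 kilobases of the 18 loci, 203 other loci were tested and 34.5% of them were called higher, or 8.37% after scaling. The neighbourhoods were thus near the background on both scales. The count of 16 became 8 without wild-type replicate 1, 8 without wild-type replicate 3, 8 without dek42 replicate 2 and 7 without dek42 replicate 3. The share of all loci called higher fell in the same settings, to 28.5%, 28.9%, 26.5% and 24.99%, beside 23.5%, 23.5%, 24.2% and 21.2% of the neighbours tested there.

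**Figure D4:**
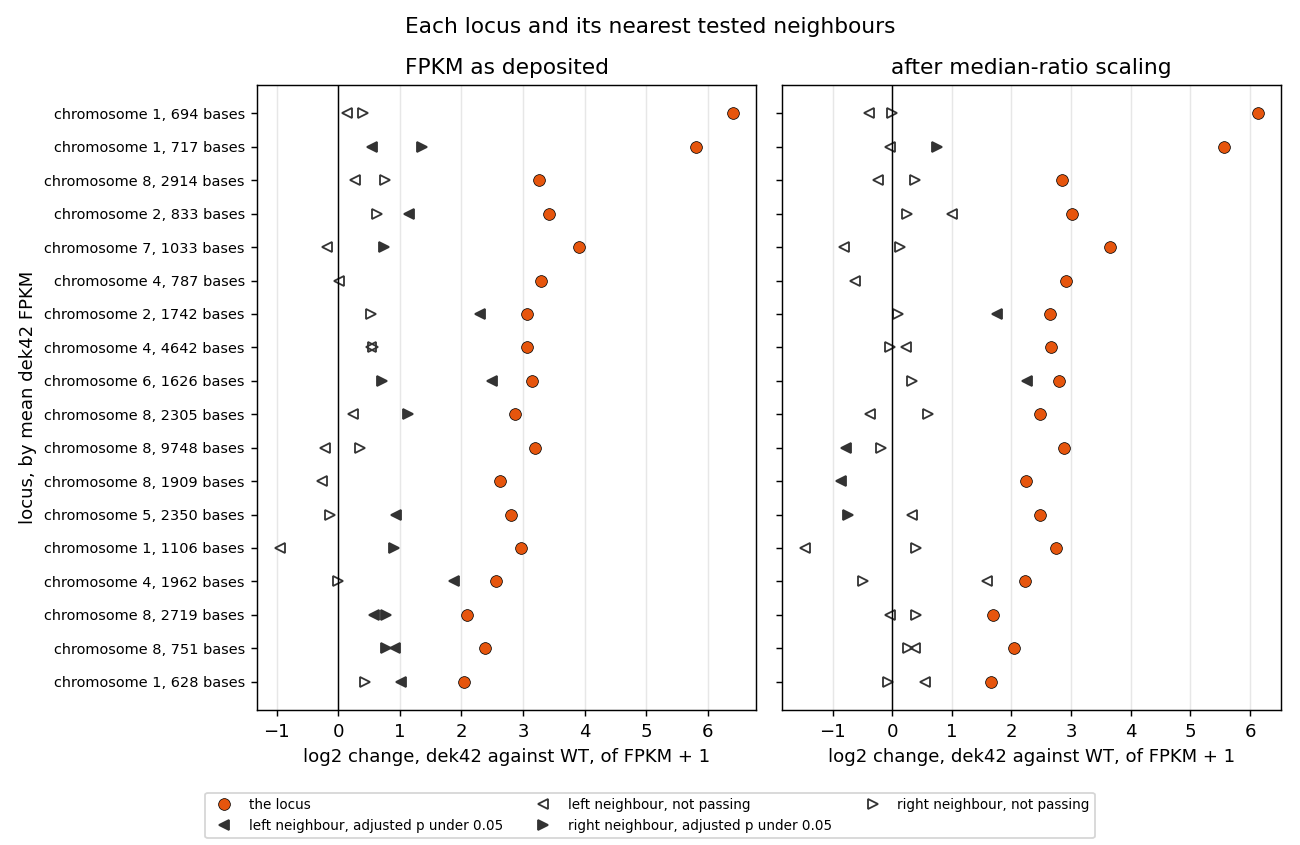
Change in log2(FPKM + 1) between dek42 and wild type for each of the 18 loci (orange) and for its nearest tested neighbours on the left and right (triangles, filled where the limma adjusted p was under 0.05), on the deposited scale and after median-ratio scaling. The neighbours lie from -0.94 to 2.49 on the deposited scale, all 34 below the locus they flank. That order is largely set by the rule, which chose the 18 for a large change.

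Most neighbours were transcribed in wild type: 27 of the 34 had at least 1 FPKM in both wild-type libraries, and 4 were under 1 FPKM in both. Of those 4, 3 are among the 16 called higher, and they passed the filter on low values through dek42 alone, so little is read from their calls. Close neighbours did not always pass the test. On chromosome 5 the locus from 221977187 to 221990364, which begins 4016 bases past its member, had 25.3 and 28.6 FPKM in wild type and 21.6, 25.5 and 26.5 FPKM in dek42 (limma adjusted p = 0.50). After median-ratio scaling it was called lower (limma log2 change -0.74, adjusted p = 0.021). On chromosome 8 the locus from 120806360 to 120811444, which begins 8885 bases past the longest member, had 3.99 and 4.35 FPKM in wild type and 3.97, 6.46 and 6.64 FPKM in dek42 (limma adjusted p = 0.28, or 0.59 after scaling).

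Of the 6 neighbours within 10 kilobases, 2 were called higher on the deposited scale. On chromosome 1 the locus from 227648294 to 227649464, 1485 bases from its member, had 2.03 and 1.79 FPKM in wild type and 4.13, 5.56 and 5.08 FPKM in dek42 (limma adjusted p = 0.012). On chromosome 6 the locus from 129107764 to 129110513, 4266 bases from its member, had 1.06 and 1.20 FPKM in wild type and 2.49, 2.72 and 2.32 FPKM in dek42 (limma adjusted p = 0.036). After median-ratio scaling neither passed (limma adjusted p = 0.088 and 0.30).

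The 3 neighbours called higher on both scales were farther off. On chromosome 6 the locus from 128952505 to 128954001, 148 kilobases from its member, had 0 and 0.0492 FPKM in wild type and 2.64, 9.72 and 3.90 FPKM in dek42 (limma log2 change 2.49, SE 0.45, adjusted p = 0.0079). It is 1 of the 3 that passed the filter through dek42 alone. It missed the rule through dek42 replicates 1 and 3, and dek42 replicate 2 was its highest library while replicate 3 was the highest at its member. On chromosome 2 the locus from 106492267 to 106494016, 135 kilobases from its member, had 3.29 and 3.55 FPKM in wild type and 17.2, 25.2 and 21.0 FPKM in dek42 (limma adjusted p = 0.0014). On chromosome 1 the locus from 237624498 to 237636043, 51.0 kilobases from its member, had 17.1 and 16.3 FPKM in wild type and 43.1, 43.4 and 47.4 FPKM in dek42 (limma adjusted p = 0.0017), with none of the spread among dek42 libraries seen at the member.

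Rows too low to be tested often lay nearer still. Of the 35 nearest rows of any level, 15 were tested, 12 were at 0 in all 5 libraries and 8 were low. The row on chromosome 1 from 288457794 to 288458472 ends 28 bases before the most abundant of the 18 and was singled out after its values were seen. It was at 0 in both wild-type libraries and had 0.251, 1.44 and 0.379 FPKM in dek42 replicates 1, 2 and 3. Dek42 replicate 2 was highest at both. The sources used here do not say whether reads were counted by strand, so how reads near their shared border were assigned is unknown.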

How the data were processed

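FPKM values, 1 file per library, were made by the authors and deposited. The unit is FPKM per the file headers. The submitters' processing notes name TopHat2 2.1.0, Cufflinks 2.2.1 and the build B73 RefGen_v4, and give no role for any. Strand use, the handling of reads that fit several loci and how RNA was selected are not given in the sources used here, and either of the first 2 could move values between neighbouring rows or copies. Files were joined by locus, since their row order differs. Each lists 45764 rows, of which 28 (14 spans given in 2 rows, always at 0) were left out, which left 45736 loci. A reference table of 49888 genes is of another assembly and shares no identifier with the files, so no names, coordinates or sequences were taken from it.

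The members and lists were chosen with earlier results of these data known. Loci that reached 1 FPKM in 2 or more libraries were tested on log2(FPKM + 1) by limma 3.58.1 (R 4.3.3, eBayes with trend), with genotype as the only term, two-sided, and Benjamini-Hochberg adjustment over all 20327 loci (20067 after median-ratio scaling, where the filter was applied to scaled values) at 0.05. This scale understates changes of low loci. Folds are ratios of mean FPKM. Median-ratio scaling divided a library by its median ratio to the geometric means of the loci, over loci tested and above 0 in all libraries. Replicates are samples the labels call so, and p-values measure only the spread between them, which may be technical. Depth is unknown, so no counting interval is given. With 30 or fewer members, the rule for named loci allowed any to be named, beside those nearest each limit and called neighbours within 10 kilobases. Other neighbours were named after their values were seen.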

Additional observations from a re-analysis of the deposited data

How the results depend on the processing

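The count of loci called higher or lower over the whole table depended on the scaling. Against 7966 higher and 465 lower, median-ratio scaling gave 1619 and 1654, quantile normalization 1521 and 1591, and rescaling without the 50 most abundant loci 1175 and 1352. Leaving out 1 library gave 4894 to 6883 higher and 271 to 463 lower on the deposited scale. Where that leaves 1 wild-type library, its variance is taken from the dek42 group. On the median-ratio scale (an alternative chosen after seeing the data, with the factors of all 5 libraries kept) 1072 were higher and 892 lower without replicate 1 of wild type, 1599 and 1504 when its replicate 3 was dropped, 737 and 740 without dek42 replicate 1, 574 and 520 without dek42 replicate 2, and 366 and 307 without dek42 replicate 3. With 1 dek42 library left out on the median-ratio scale, 17 to 18 members were called higher. The locus lost was always that on chromosome 8 from 103471795. Under every other alternative that kept both wild-type libraries, all 18 were. Of all loci tested, 1.87% to 3.76% were called higher in the former settings and 5.81% to 49.0% in the latter. Nothing is read from these counts, since the rule chose the loci by the same contrast.

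The median log2 change of the 18 loci was 4.37 and 3.63 with pseudocounts of 0.1 and 0.5, 2.71 after median-ratio scaling, 2.47 after quantile normalization and 2.72 after rescaling without the 50 most abundant loci, against 3.06. Membership was sensitive. The rule found 7 loci with a wild-type limit of 0.5 FPKM, 82 with 2 FPKM, 8 with a dek42 limit of 10 FPKM, 109 with 2.5 FPKM, 7 after median-ratio scaling and 5 after rescaling without the 50 most abundant loci. Without 1 library, a looser condition by construction, it found 22 to 44. The reverse rule found 1, 6, 0, 12, 7 and 7 loci under the same 6 settings, and 3 to 8 without 1 library, against 3.

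The neighbours called higher, 16 of 34 as reported, numbered 8 with no filter on low values (23.5%, beside 19.3% of all loci tested). With a filter of 5 FPKM, which tests 20 of them, 10 were called (50%, beside 49.0%). Those called numbered 3 each (8.82%) after median-ratio scaling, quantile normalization and rescaling without the 50 most abundant loci, beside 8.07%, 7.48% and 5.81%. They were 7 to 12 without 1 library, and 1 to 5 on the median-ratio scale. Of the 6 and 16 neighbours within 10 and 50 kilobases 2 and 6 were called higher, and of the 203 loci tested within 500 kilobases 70. Where no construction is named, the cause was not tested.

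Replicate numbers 1 and 3 occur in both genotypes. With a replicate block 4206 loci (20.7%) were called higher and 294 lower, with 1 residual degree of freedom. Of the neighbours 7 (20.6%) were called higher. The differences between replicates 1 and 3 in the 2 genotypes correlated with r = -0.0047 across 20327 loci. A single value over all loci cannot tell whether samples with the same number share an origin.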
